A study of Mus musculus with 2 samples.

Results

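The 3' UTR-only peaks of YTHDF2 in C2C12 myotubes were the peaks that the authors' deposited gene table marked as touching a 3' untranslated region and no start codon, stop codon, coding sequence or 5' untranslated region of the listed gene. Taken once per peak name, the rule gave 696 peaks, which is 45.2% (95% Wilson interval 42.7 to 47.7) of the 1541 peaks in that table and 7.51% (6.99 to 8.06) of all 9271 peaks. For 8 of the 696 the table also held a row of another gene in another element, and the remaining 688 equal the number that the authors' deposited element summary gives for 3' UTRs. The peaks were listed with 606 genes. C2C12 is a mouse myoblast line, here wild type, that was grown to myotubes for 4 to 5 days in 2% horse serum and received no other treatment. An antibody against YTHDF2 pulled down the RNA it binds (RNA immunoprecipitation, RIP), and total input RNA of the same wild-type cells, treated alike, served as background. Each kind had 1 library, both in the batch labelled 1, and sequencing was paired-end with 150 bp reads. Without replicates there is no spread between samples and no test, and the folds given here are the authors' own values per peak.

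YTHDF2 is a cytoplasmic protein whose YTH domain binds N6-methyladenosine (m6A) in mRNA. It recruits the CCR4-NOT deadenylase, which shortens the poly(A) tail and starts decay. The 3' UTR lies between the stop codon and the poly(A) tail and carries most sites through which bound proteins and microRNAs set the stability of an mRNA, and m6A is known to be dense from the stop codon into the 3' UTR. The consensus around m6A is DRACH, in which D stands for any base but C, R for a purine and H for any base but G, and GGAC is a frequent core.

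Sequences of 8 peaks show what lay near the summits, the positions of most RIP fragments. They were taken from the peaks named below by fold, fragment number, q-value or number of peaks per gene that had a GGAC within 50 bases of the summit, and they run 5' to 3' on the strand of the gene (mm10) with the GGAC in capitals. They were chosen to run from peaks of high fold enrichment (Tmed5) to the peak of the lowest (Tmem106b). Tmed5 is a p24-family cargo receptor of the early secretory pathway, shown at chr5:108124007-108124036 (minus strand). Zfp959 is a zinc finger protein gene, shown at chr17:55898762-55898791 (plus strand). Zfp748, a second zinc finger gene, is shown at chr13:67539414-67539443 (minus strand). Phip, which encodes a bromodomain and WD-repeat protein, is shown at chr9:82868920-82868949 (minus strand). Syncrip (hnRNP Q), an RNA-binding protein, is shown at chr9:88454092-88454121 (minus strand). Steap2, a metalloreductase, is shown at chr5:5669053-5669082 (minus strand). Naa50, an N-terminal acetyltransferase, is shown at chr16:44161913-44161942 (plus strand). Tmem106b, a lysosomal membrane protein, is shown at chr6:13084394-13084423 (plus strand).
Tmed5: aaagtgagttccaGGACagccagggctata
Zfp959: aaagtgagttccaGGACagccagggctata
Zfp748: cagtctcacccctGGACtggtggtcctgag
Phip: gtcttagtgtggaGGACctctagaatgggg
Syncrip: ggaatcaaatacgGGACattgaactaatac
Steap2: tgctggtctctgaGGACtctgctcgaaggg
Naa50: aatgtagaaactgGGACtagtccatgtacc
Tmem106b: gtactgcctagaaGGACatctttaattaag
The windows of Tmed5 and Zfp959 are identical over their 30 bases although the genes lie on different chromosomes, and the reference marks all 30 bases of both as repeats (soft-masked). In the Zfp748 window 24 bases were soft-masked, and in those of Phip, Syncrip, Steap2, Naa50 and Tmem106b none. A GGAC within 50 bases of the summit was found in 142 of the 676 peaks that could be placed in an annotated 3' UTR (21.01%, 18.1 to 24.2). Those 142 had a median fold enrichment of 3.01, and the 534 without one had a median of 3.16. The same share for other stretches of these 3' UTRs was not computed. Sites of GGACH, a GGAC followed by any base but G, stood at 2.14 per kb in the peaks. In the rest of the same 3' UTRs they stood at 1.98 per kb.

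The peaks spanned a wide range of input levels. Fold enrichment, the authors' ratio of RIP to local input background at the summit, had a median of 3.13 with quartiles of 2.39 and 4.33, and ran from 1.40 to 11.3. The number of RIP fragments at the summit had a median of 62 (quartiles 37 and 97, range 9 to 318). The input background had a median of 16 pileup units (quartiles 7.51 and 32, range 1.08 to 167), in which 1 RIP fragment counts 0.9. Peaks were 186 to 929 bp long, with a median of 235 bp. A fold of 4 or more was reached by 202 of the 696 (29.02%, 25.8 to 32.5), against 59.6% of all peaks in the list.

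The lower folds went with higher input background. The median background was 4.28 units for the 7730 peaks outside the gene table, whose median fold was 4.58. It was 16 for the 242 peaks over stop codons (median fold 3.29) and 9 for the 311 peaks inside coding sequence only (median fold 3.53). At a background of 8 to 16 units, the 168 members in that range had a median fold of 3.44, the 1496 peaks without a table entry had 3.45, the coding peaks 3.42 and the stop codon peaks 3.95. At 32 units or more, the 174 members had a median fold of 2.09 and the 134 peaks without a table entry had 2.12. Across the 676 placed members, fold and background had a Spearman correlation of -0.834, and fold and relative position in the 3' UTR 0.07. Fold is computed from the background and a peak needs enough fragments to be called, so the first of these is a description of the calling as much as of the RNA.

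**Figure D1:**
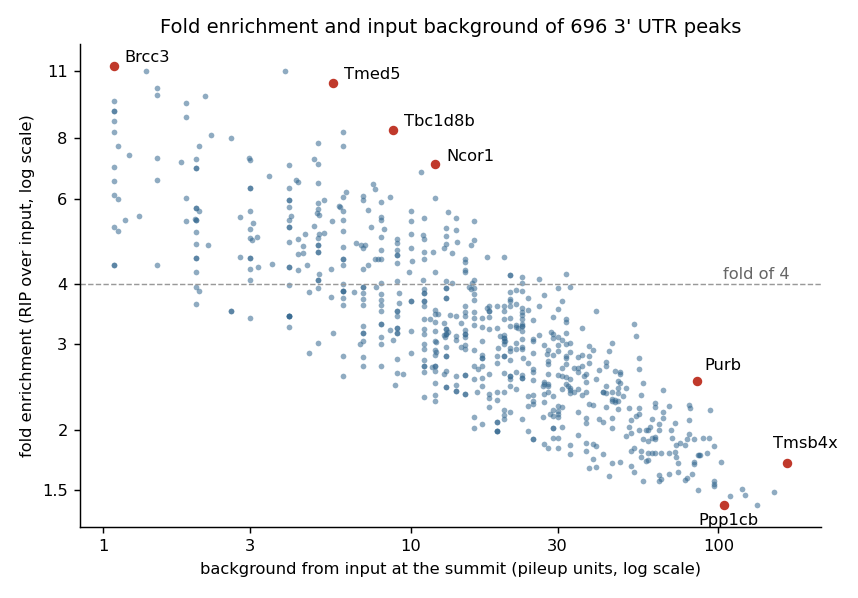
Fold enrichment of RIP over input (y axis, log scale) against the input background at the summit in pileup units (x axis, log scale), with 1 point for each of the 696 peaks in 3' UTRs only. The cloud falls from left to right, with Brcc3 at a fold of 11.3 over a background of 1.08 and Tmsb4x at a fold of 1.71 over a background of 167; the dashed line marks a fold of 4 and named genes are in red.

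The 15 peaks of highest fold had a low input background at the summit, none above 8.74 units. Brcc3, a deubiquitinase of lysine-63 chains, led with 25 RIP fragments over a background of 1.08 and a fold of 11.3 (95% Poisson interval 7.47 to 16.4). These intervals are exact, hold the background fixed and cover the counting error of the RIP fragments only. Casc4 followed with 59 fragments over 3.91, a fold of 11.03 (8.44 to 14.2). Zcchc7, a zinc knuckle protein of the nuclear RNA surveillance machinery, had 28 fragments over 1.38, a fold of 11.03 (7.47 to 15.7). In 6 of the 15 the background stood at 1.08, the lowest value it takes in the list, and in 13 it was under 4.00. They also included Sema3c, a secreted semaphorin, at 10.2 (6.84 to 14.6), E2f8, an atypical E2F repressor, at 9.78 (6.83 to 13.6), Lpar4, a lysophosphatidic acid receptor, at 9.13 (5.76 to 13.8), and Ndufc1, a subunit of respiratory complex I, also at 9.13 (5.76 to 13.8). Pyurf stood at 9.48 (6.46 to 13.5), Prrg1 at 8.85 (5.95 to 12.7) and Lrrn4cl at 8.26 (5.09 to 12.8).

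A few strong peaks rested on many fragments. Tmed5 had 75 fragments over 5.58, a fold of 10.4 (8.22 to 13.01), in the longest member peak, chr5:108123217-108124145, whose summit lay 546 bases after the stop codon. Tbc1d8b, a gene with the TBC domain of Rab GTPase-activating proteins, had 89 fragments over 8.74, a fold of 8.32 (6.71 to 10.2). Ncor1, the nuclear receptor corepressor, had 101 fragments over 12, a fold of 7.07 (5.77 to 8.57). Tbc1d8b had the smallest q-value of the members, 1.6e-42, as the peak caller gave it. Tmed5 had 2.6e-42 and Ncor1 2.0e-41. The other small q-values belonged to Dnal1, an axonemal dynein light chain (153 fragments over 32, fold 4.203, 3.57 to 4.92), Casc4, Eif4e3, a cap-binding protein of the eIF4E family (fold 6.804, 5.47 to 8.36), Steap2 (3.30, 2.86 to 3.79), B4gat1, which builds the laminin-binding glycan of dystroglycan (3.95, 3.34 to 4.63), Casp12 (5.41, 4.41 to 6.56) and Hsbp1, a heat shock factor binding protein (3.13, 2.70 to 3.60). A small q-value was thus reached at folds between 3.13 and 11.03.

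The peaks with most RIP fragments had low folds. Tmsb4x, which encodes the actin-sequestering thymosin beta 4, held 318 fragments over a background of 167, a fold of 1.71 (1.53 to 1.91). Tapbp, the tapasin of peptide loading, held 251 over 152 (fold 1.48, 1.31 to 1.68). Purb, a repressor that binds single-stranded nucleic acid, held 240 over 85.0 (2.52, 2.22 to 2.86). The alpha V integrin gene Itgav held 231 over 94.0 (2.20, 1.93 to 2.50). The other genes of this group were Tmem106b with 207 fragments, Deptor, an inhibitor of mTOR, and Ube2b, a ubiquitin conjugating enzyme, with 201 each, and Mbnl1, the splicing regulator muscleblind, Cald1 (caldesmon) and Atp13a3 with 200 each. Among these 10 no fold was above 2.52 and no background under 80.0. The 5 lowest folds of all were those of Tmem106b at 1.40 (1.21 to 1.60), Ppp1cb, a catalytic subunit of protein phosphatase 1, at 1.40 (1.19 to 1.63), Lox, lysyl oxidase, at 1.46 (1.25 to 1.69), the RNA helicase gene Ddx5 at 1.46 (1.27 to 1.68) and Tapbp. Every one of these lower bounds was above 1, with the background held fixed. All 5 had been called as peaks over that same background, so the bounds are no separate evidence of enrichment.

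Summits spread over the whole 3' UTR. For 676 of the 696 peaks an annotated 3' UTR of the listed gene held the summit, and the transcript with the longest such 3' UTR was used. From the stop codon to the 3' end, 5 equal segments of the 3' UTR held 16.3% (13.7 to 19.2), 23.5% (20.5 to 26.9), 20.0% (17.1 to 23.2), 23.4% (20.3 to 26.7) and 16.9% (14.2 to 19.9) of summits. The median summit lay 1065 bases after the stop codon (quartiles 494 and 1979) and 1002 bases before the 3' end (quartiles 495 and 1923). Within 100 bases of the stop codon there were 6 summits, a region that the rule itself empties because a peak there usually touches the stop codon. Within 100 bases of the 3' end there were also 6 (0.888%, 0.407 to 1.92), which the rule does not set. No peak was shorter than 186 bp, and the part of peak length and of the transcript chosen in that number was not tested.

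Position varied with the length of the 3' UTR. In 3' UTRs under 1000 bp, the first segment held 6.58% (2.84 to 14.5) and the last 3.95% (1.35 to 10.97) of 76 summits. In 3' UTRs of 4000 bp or more, the first segment held 25.8% (19.7 to 33.0) and the last 18.4% (13.2 to 25.1) of 163 summits. The segments of a long 3' UTR are much wider than a peak and those of a short one are not. Of the 676 placed members, 170 (25.1%, 22.02 to 28.6) had their summit within 500 bases of the stop codon and 172 (25.4%, 22.3 to 28.9) within 500 bases of the 3' end.

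**Figure D2:**
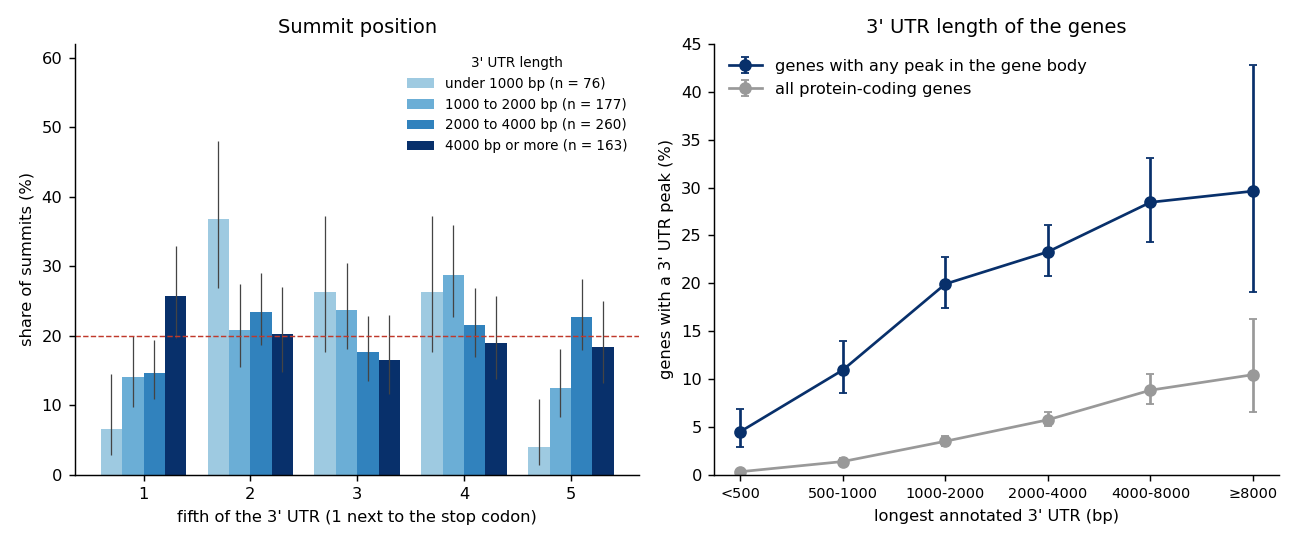
Left, share of summits (%) in each of 5 equal segments of the 3' UTR, by 3' UTR length, with Wilson 95% intervals; the dashed line marks 20%. Right, share of genes (%) with at least 1 peak in the 3' UTR only, by the longest annotated 3' UTR (bp), with Wilson 95% intervals, which rises from 4.49% to 29.6% among genes with any peak and from 0.319% to 10.5% among all protein-coding genes.

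The genes had long 3' UTRs. The longest annotated 3' UTR had a median of 2342 bp over 603 protein-coding genes with a member peak, 1227 bp over the other genes of the authors' table, 1766 bp over genes with any peak summit in the gene body and 971 bp over all 20854 protein-coding genes with a 3' UTR. Of all those genes, 2.89% had a member peak, and of the 3234 genes with any peak in the gene body, 18.6% had one. The share rose with length, from 0.319% (0.209 to 0.488) under 500 bp to 10.5% (6.54 to 16.3) at 8000 bp or more. Among genes with any peak it rose from 4.49% (2.93 to 6.84) to 29.6% (19.1 to 42.8). Per kilobase of 3' UTR it did not rise throughout: over all protein-coding genes there were 0.0132 member peaks per kb under 500 bp, 0.0253 at 1000 to 2000 bp and 0.0127 at 8000 bp or more. Among genes with any peak, a set that the member peaks themselves help to define, the values were 0.159, 0.140 and 0.0382. Expression was not measured here, and how much of these shares follows expression was not tested.

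Most genes had 1 such peak. There were 529 genes with 1, 67 with 2, 9 with 3 and 1 with 6. Peaks of 1 gene share their transcript, so they are not independent. The 90 gaps between neighbouring summits of 1 gene had a median of 1057 bp on the genome (quartiles 696 and 2033), and the shortest was 382 bp, in Siah1a, a ubiquitin ligase.

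Syncrip had the most, with summits at 130, 818, 2893, 3758, 4402 and 7111 bases of a 3' UTR of 7245 bases. In that order the RIP fragments were 159, 71, 43, 54, 67 and 48, and the folds were 3.51 (2.99 to 4.101), 3.09 (2.42 to 3.89), 1.99 (1.45 to 2.66), 4.47 (3.38 to 5.80), 3.23 (2.51 to 4.08) and 5.24 (3.89 to 6.90). The peak next to the stop codon had most fragments and the one next to the 3' end the highest fold; the backgrounds were 40.0 and 7.44. The interval of the third peak, with 43 fragments over a background of 19, did not overlap those of the first, the fourth and the last. These intervals leave out the error of the background, so this is no test of a difference between the peaks.

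Acer3, an alkaline ceramidase, had its 3 peaks at folds of 5.52 (3.14 to 9.13), 7.23 (4.71 to 10.7) and 5.73 (3.53 to 8.87), with 13 to 23 fragments and overlapping intervals. Cdc73, a subunit of the PAF1 transcription elongation complex, had 3.93 (3.01 to 5.04), 2.10 (1.60 to 2.73) and 2.93 (2.32 to 3.65). The first 2 intervals did not overlap, but those peaks had 60 and 55 fragments over backgrounds of 13 and 23. The error of the background is not in the intervals. Purb had 2.11, 1.89 and 2.52 with 144, 125 and 240 fragments. B3galt2, a galactosyltransferase, had all of its peaks in the second part of a 3' UTR of 7218 bases, at 4814, 6151 and 6899 bases. Trove2, which encodes the Ro60 RNA-binding protein, had folds of 2.92, 2.84 and 3.95, and Phip 2.64, 2.93 and 3.68. Naa50 had 2.18, 2.58 and 2.39, and Smc5, of the SMC5/6 genome maintenance complex, 2.63, 4.07 and 2.99. Rbm26, an RNA-binding protein gene, had 3.47, 2.36 and 2.63, the first in the 3' UTR of another transcript than the other peaks.

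**Figure D3:**
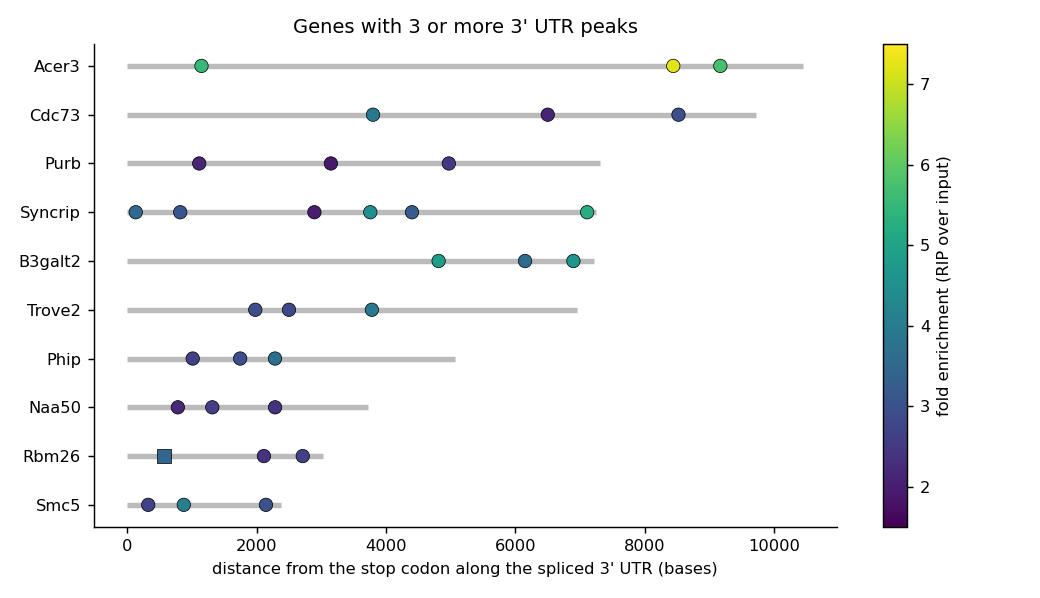
Summits of the 10 genes with 3 or more 3' UTR peaks, by distance from the stop codon along the spliced 3' UTR (bases); grey lines are the 3' UTRs and colour gives fold enrichment. Syncrip carries 6 summits from 130 to 7111 bases, and the square in Rbm26 marks a peak placed in another transcript with a shorter 3' UTR of 794 bases.

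Of the 603 protein-coding genes, 302 (50.1%, 46.1 to 54.1) had no peak of another class in the gene body. A peak outside the authors' gene table was found in 258 (42.8%, 38.9 to 46.8). Coding-only peaks were found in 43 (7.13%, 5.34 to 9.47), peaks at the start codon or 5' UTR in 44 (7.30%, 5.48 to 9.65) and stop codon peaks in 25 (4.15%, 2.82 to 6.05). The same shares over all protein-coding genes were not computed, so these values only describe the member genes.

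The broad m6A consensus was slightly sparser in the peaks than in the rest of the same 3' UTRs. For its GGAC forms the interval held 1 against that rest and lay above 1 against the windows beside the peaks. Sites on the strand of the gene were counted in 184463 bases inside member peaks and in the bases of the same 3' UTRs outside all peaks; motifs can overlap, as GGACT lies within GGACH and GGACH within DRACH. DRACH had a density ratio, inside over outside, of 0.945 (exact 95% interval of the counts 0.912 to 0.978). It was present in 98.4% of members, 99.2% of stop codon peaks and 95.8% of coding peaks. GGACH stood at 1.08 (0.971 to 1.20) against the rest of the 3' UTR and at 1.23 (1.08 to 1.41) against windows of 1 peak width on either side in the same 3' UTR. GGACT stood at 1.18 (0.990 to 1.39) and 1.37 (1.10 to 1.70) in the same order. Over 8 alternative settings the interval lay above 1 in 1 for GGACH and in 4 for GGACT. G made up 22.5% of bases in the peaks and 18.8% in the windows beside them. The part of base content in these ratios was not tested. GGACH was present in 41.6% (38.0 to 45.3) of members, 52.5% (46.2 to 58.7) of stop codon peaks and 47.3% (41.8 to 52.8) of coding peaks. Whether any of these sites is methylated was not measured.

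The AU-rich words AATAAA and ATTTA were sparser inside the peaks. AATAAA, the polyadenylation signal that directs cleavage of the 3' end, had a ratio of 0.641 (0.540 to 0.757) and was present in 16.98% of members, 15.3% of stop codon peaks and 10.9% of coding peaks. ATTTA, the core of AU-rich decay elements, had a ratio of 0.664 (0.592 to 0.742) and was present in 33.7% of members, 27.7% of stop codon peaks and 18.3% of coding peaks. TGTANATA, the site of Pumilio proteins, had 0.780 with 40 sites in the peaks, and its interval held 1 (0.549 to 1.08). Within 100 bases of the summits it had 0.635 (0.402 to 0.957) with 24 sites. That was the only 1 of 8 alternative settings in which its interval lay below 1. TGTANATA was present in 5.32% of members, 1.24% of stop codon peaks and 1.93% of coding peaks. The base content moved with them: G made up 22.5% of bases inside and 19.4% outside, A 27.6% and 29.6%, T 31.6% and 32.4%, and C 18.4% and 18.5%. The part of base content in the motif ratios was not tested. The outside bases also include the 3' ends, where AATAAA acts, and 6 of 676 summits lay within 100 bases of the 3' end. The part of that position in the AATAAA ratio was not tested either.

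Along the transcript, these differences were largest within about 100 bases of the summit. G reached 24.2% in the 50 bases before the summit, against 18.8% at 450 to 500 bases before it and 18.4% at 450 to 500 after it. AATAAA stood at 0.386 sites per kb at 50 to 100 bases before the summit. It stood at 1.05 per kb 450 to 500 bases before and at 2.15 per kb 450 to 500 bases after it. ATTTA fell from 3.66 per kb at 250 to 300 bases before to 1.39 per kb in the 50 bases before the summit, and was back at 3.68 per kb 200 to 250 bases after it.

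**Figure D4:**
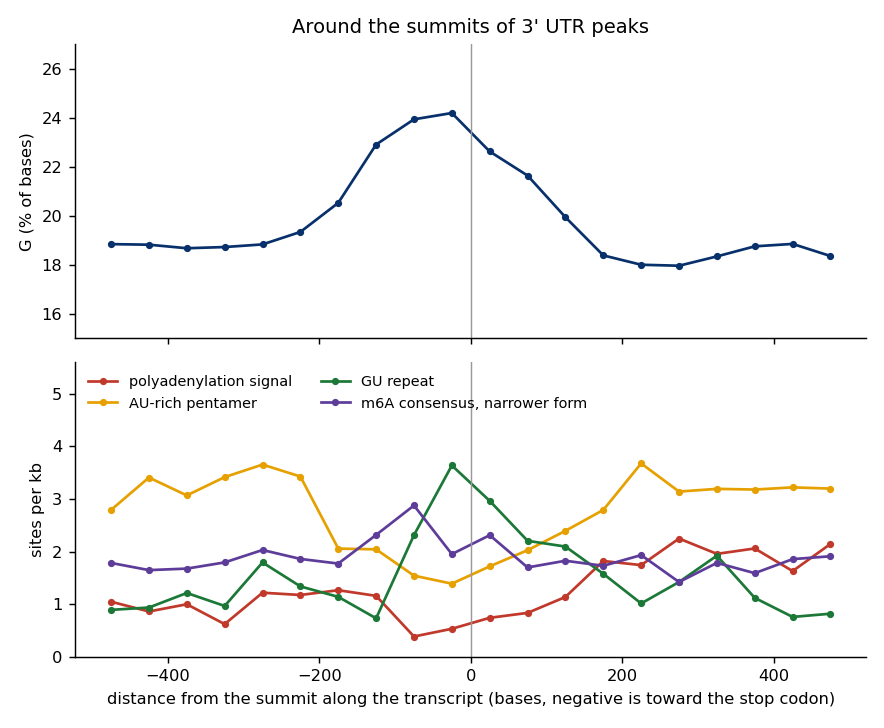
Top, share of G (% of bases) in bins of 50 bases by distance from the summit along the transcript (negative toward the stop codon). Bottom, sites per kb of the polyadenylation signal (AATAAA), the AU-rich pentamer (ATTTA), the GU repeat (TGTGTG) and the narrower m6A consensus (GGACH); G and the GU repeat are highest and the AU-rich words lowest near the summit.

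Other short words were denser inside the peaks, and for some the reverse complement was not. The words in this paragraph and the next were picked after the values were seen, because they were common in the peaks, so their ratios are descriptions only. Among words of 6 bases, the GU repeat TGTGTG and its form shifted by 1 base had the highest ratios. The first had 474 sites inside and a ratio of 2.19 (1.98 to 2.43), while its reverse complement, the CA repeat CACACA, had 1.05. Overlapping sites within 1 repeat were each counted, and 152 of 695 members held at least 1 TGTGTG. The interval takes such sites as independent, so it is too narrow. The purine word AGAAAG had 1.96 (1.69 to 2.27) and its reverse complement, the pyrimidine word CTTTCT, had 1.18. Among peaks at a fold of 4 or more both were denser, at 1.85 (1.40 to 2.41) for the purine word and 1.81 (1.39 to 2.33) for the pyrimidine word. TGTGTG was present in 21.9% of members, 15.7% of stop codon peaks and 12.5% of coding peaks, and AGAAAG in 22.4%, 22.7% and 24.4%. Without bases that the reference marks as repeats (soft-masked), TGTGTG had 1.46 (1.20 to 1.75) and CACACA 0.715 (0.497 to 1.00), AGAAAG 1.62 (1.33 to 1.97) and CTTTCT 0.848 (0.663 to 1.07). Repeats of TG of 12 or more bases were counted 22 times inside and 68 times outside, and CA repeats 12 and 88 times. Runs of 12 or more T were counted 46 and 158 times, and of A 23 and 141 times. Inside the peaks TG repeats outnumbered CA repeats, and outside them CA repeats outnumbered TG repeats. The 2 longest TG repeats in members were in Mydgf, a secreted growth factor gene (chr17:56176160-56176189, minus strand, 67 bases of repeat), and Slf2, of the SMC5/6 pathway (chr19:44981444-44981473, plus strand, 55 bases), with the first bases of the repeat in capitals.
Mydgf: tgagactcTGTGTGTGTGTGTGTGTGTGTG
Slf2: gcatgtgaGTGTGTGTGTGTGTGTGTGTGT
The folds of these peaks were 3.33 for Mydgf and 2.38 for Slf2, near and below the median of the members.

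**Figure D5:**
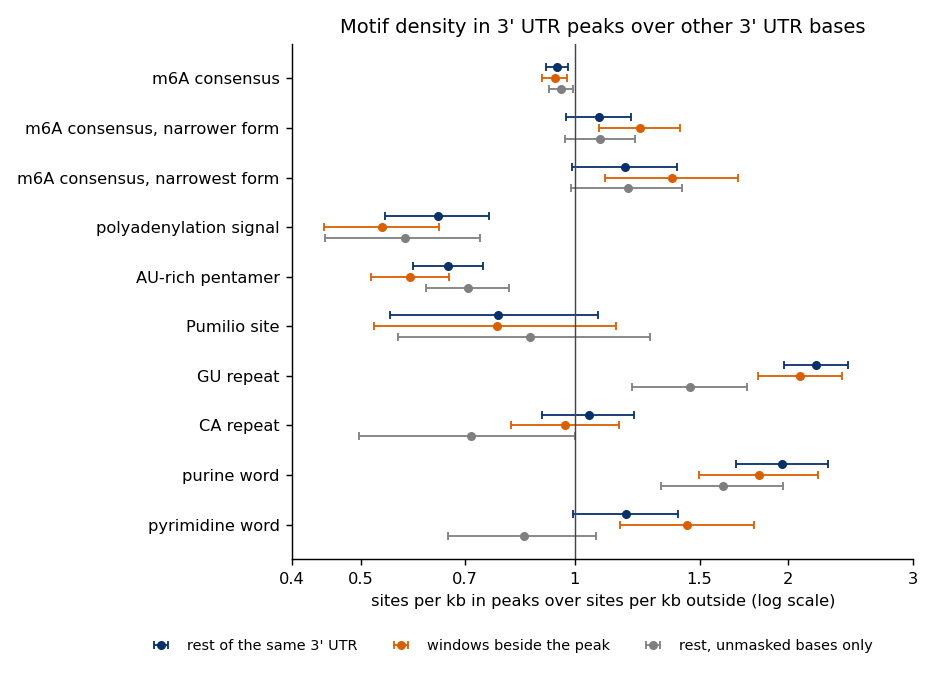
Sites per kb inside 3' UTR peaks over sites per kb outside them (x axis, log scale) with exact 95% intervals; the narrower and narrowest forms of the m6A consensus are GGACH and GGACT. Colours give the comparison bases (rest of the same 3' UTR, windows beside the peak, unmasked bases of the rest); the polyadenylation signal and the AU-rich pentamer lie below 1, and the GU repeat and the purine word above 1, against all of them.

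Part of the members lay in copies of a dispersed repeat. The word of 12 bases found in the peaks of most 3' UTRs, runs of 1 or 2 kinds of base left aside, was AGACAGGGTTTC, in 26 member peaks of 25 3' UTRs, level with an overlapping word that starts 3 bases later. It is known from the antisense strand of the B1 short interspersed element, an abundant mouse retrotransposon. It was counted 26 times inside the peaks and 32 times in the far larger rest of the same 3' UTRs, whereas its reverse complement was counted 8 and 44 times. Windows of 4 of these peaks are shown to give the likeness of the copies, with the word in capitals: Ndufc1 at chr3:51405392-51405421 (minus strand), Stard7, a lipid transfer protein gene, at chr2:127285029-127285058 (plus strand), Armt1 at chr10:4451623-4451652 (plus strand) and Ppm1k, a mitochondrial phosphatase gene, at chr6:57508200-57508229 (minus strand).
Ndufc1: ttgtttccaAGACAGGGTTTCtctgtgtag
Stard7: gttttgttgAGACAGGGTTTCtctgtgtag
Armt1: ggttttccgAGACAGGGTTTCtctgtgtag
Ppm1k: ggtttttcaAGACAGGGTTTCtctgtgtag
The bases after the word are the same in all of them and those before it differ. The folds of the 26 peaks ran from 1.79 in Lats1, a Hippo pathway kinase, to 9.13 in Ndufc1, with a median of 4.04 and a median background of 9.50. Stard7 stood at 7.27 (5.36 to 9.63), Armt1 at 5.67 (4.14 to 7.59) and Ppm1k at 5.02 (3.98 to 6.26). Of the 15 peaks of highest fold, 2 held the word, Ndufc1 and Lrrn4cl, and the Tmed5 peak held its reverse complement. How reads that map to several places were treated is not given in the sources used here, and its part in these peaks was not tested.

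By the reference's own marking, 98 of the 696 members (14.1%, 11.7 to 16.9) had 50% or more of their bases soft-masked. That share was 2.48% for stop codon peaks, 4.18% for coding peaks and 40.4% for peaks outside the gene table. The 98 had a median fold of 3.94 over a median background of 11.5, and the other members 3.05 over 17.8. Inside the peaks 22.03% of bases were soft-masked, against 20.2% in the rest of the same 3' UTRs.

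The peaks fell in many kinds of genes, read here against the 2.89% of all protein-coding genes with a member peak, whose highest folds had a median of 3.22. Of those 603 genes, 191 had a fold of 4 or more. Any peak in the gene body was found in 3234 of all 20854 genes. List counts at that fold or with any peak are to be read beside these numbers. The lists have genes with 3' UTRs longer or shorter than usual, and expression differs between them, so a share above 2.89% is no result about a pathway; 21 of the 27 lists were above it.

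Among m6A writers, erasers and readers, 4 of 24 genes had a 3' UTR-only peak. Ythdc2, a YTH-domain helicase that binds m6A, had 19 fragments over 1.08, a fold of 8.69 (5.43 to 13.3). The m6A-linked RNA-binding proteins Rbmx and Fmr1 had 4.82 (3.33 to 6.77) and 2.39 (1.76 to 3.18). Ythdf3, a paralogue of YTHDF2, had 2.12 (1.67 to 2.66). The decay machinery had 2 of 27, both of CCR4-NOT: its scaffold Cnot1 at 3.27 (2.62 to 4.02) and its deadenylase Cnot6l at 2.73 (2.20 to 3.36). The summits of Rbmx and Cnot1 were among the 20 that lay in no annotated 3' UTR of the listed gene. Of 18 published YTHDF2 substrates, 4 had one: Egfr, the EGF receptor, at 3.74 (2.85 to 4.82), Tfrc, the transferrin receptor, at 1.97 (1.63 to 2.36), and the autophagy genes Atg5 at 1.83 (1.40 to 2.36) and Ulk1 at 1.80 (1.42 to 2.25). None of the last 4 reached a fold of 4.

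Proteins that act on 3' UTRs were themselves among the genes, with 5 of 24. Mbnl2 had a fold of 3.54 (2.65 to 4.64), Zfp36l1, which binds AU-rich elements, 3.42 (2.68 to 4.29), the quaking gene Qk 3.07 (2.52 to 3.70), Cpeb3 2.12 (1.53 to 2.88) and Mbnl1 1.93 (1.67 to 2.21). Of 24 cleavage and polyadenylation factors 4 had one, led by Rbbp6 at 3.87 (2.64 to 5.50) and the poly(A) polymerase Papolg at 3.73 (2.59 to 5.21), with Cpsf6 at 2.70 (2.23 to 3.25). Of 17 genes of the microRNA pathway none had one, although 7 had a peak elsewhere in the gene body. Over all protein-coding genes, 3234 of 20854 had any peak there.

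Splicing factors had 10 of 41 (24.4%). The hnRNP genes led, with Hnrnpr at 5.52 (3.79 to 7.79) and Syncrip at 5.24 (3.89 to 6.90), then Rbm26 at 3.47, Srsf1 at 2.86 (2.31 to 3.51) and Luc7l2 at 2.49 (1.98 to 3.09). Their median highest fold was 2.45, and 2 of the 10 reached a fold of 4.

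Ubiquitin conjugating enzymes and ligases had 15 of 64 (23.4%), with a median highest fold of 3.51. The list also holds Brcc3, which removes ubiquitin and had its highest fold. After it came the conjugating enzyme Ube2d3 at 4.51 (3.29 to 6.03), the ligase Siah1a at 4.08 (3.23 to 5.09), the chain-elongating Ube4a at 4.02 (3.30 to 4.85) and the apoptosis inhibitor Birc6 at 3.92 (3.09 to 4.92). Of these 15 genes 4 reached a fold of 4, against 191 of the 603 genes in all. Some peak in the gene body was found in 43 of the 64, against 3234 of all 20854 genes. The summit of the Ube2d3 peak given here lay in no annotated 3' UTR of that gene.

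The integrin and matrix list had 2 of 30, Itgav and Thbs1, a matricellular thrombospondin, at 1.92 (1.63 to 2.25).

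Zinc finger genes with a Zfp symbol had 23 of 385 (5.97%), and 15 of the 23 had a fold of 4 or more, against 191 of the 603 genes in all. Their highest folds had a median of 4.66 and ran from 1.77 in Zfp740 to 9.81 in Zfp748. The median background of those peaks was 6 units, against 16 over all member genes. After Zfp748 and Zfp959, at 9.56 (6.10 to 14.4), came Zfp449 and Zfp606, both at 6.33 (4.25 to 9.09), and Zfp950 at 6.32 (4.44 to 8.75). Genes of this family can be alike in sequence, and whether reads were shared between them was not tested.

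In the insulin, IGF, AKT and mTOR list, 3 of 26 had a peak. All 3 had a fold of 4 or more, too few genes to be set apart from the 191 of 603 in all. They were Rictor, the mTORC2 scaffold, at 5.41 (4.195 to 6.87), and Rps6kb1, the ribosomal S6 kinase, at 5.07 (3.48 to 7.16). With them stood Igf1, a growth factor of muscle, at 4.18 (3.41 to 5.07). In the TGF-beta, activin and BMP list 4 of 28 had a peak: Smad2 at 3.71 (2.90 to 4.68), Bmpr2 at 3.45 (2.79 to 4.23), Inhba at 3.22 (2.40 to 4.24) and Bmpr1a at 1.70 (1.37 to 2.10).

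Other functional lists had 2 or 3 genes each. They were chromatin regulators with 3 of 39 (Ncor1, the remodelling ATPase Smarca5 at 5.80 and Phip), ER, Golgi and endosome traffic with 3 of 46 (Tmed5, the retromer subunit Vps29 at 5.08 and Rab6a at 3.39), and nuclear transport with 3 of 30 (the importin Kpna4 at 3.18, Nup98 at 3.02 and Nup155 at 2.71). Translation factors had 2 of 26 (Eif4e3 and Eif5 at 3.60), and cell cycle and DNA repair genes 2 of 38 (the inhibitor Cdkn1b at 3.60 and the retinoblastoma gene Rb1 at 2.07). The Nup98 summit lay in no annotated 3' UTR of that gene.

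Lists of muscle genes had few or no members, in numbers too small to be set apart from the 2.89% of all genes. None of the 41 sarcomere and triad genes had a 3' UTR-only peak, 6 of them had a peak elsewhere in the gene body, and their longest 3' UTR had a median of 311 bp. None of 22 dystrophin complex and membrane repair genes had one, with 8 holding another peak. Of 24 myogenic regulators and fusion genes, 2 had one, the EYA transcription cofactor Eya1 at 3.44 (2.12 to 5.32) and Mbnl1. Of the 16 genes fixed as myotube markers none had a member peak and 5 (Mylpf, Tnnt1, Tnni2, Ttn and Neb) had a peak elsewhere. Over all protein-coding genes, 3234 of 20854 had any peak in the gene body. Peaks over input are not expression levels, so they do not check the labelled cell type. Of 16 myoblast and reserve cell markers, Bcl2, an apoptosis inhibitor, had one at 3.01 (2.05 to 4.28). No hepatocyte, immune, endothelial or adipocyte marker had one, of 19, 20 and 18 genes, and no marker of these lists had any peak. Of 24 neuron markers only Nefm, a neurofilament gene, had one (2.00, 1.68 to 2.35), and that peak is 1 of the 8 that the table also lists under another gene.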

How the data were processed

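The deposited values came from 1 YTHDF2 RIP and 1 input library of C2C12 myotubes, 150 bp paired-end reads per the labels' protocols. An IgG control that the design text names was not analysed here. The series' design text names Bowtie for alignment (mm10) and MACS for peak calling. The submitters' processing notes further list DiffBind, deepTools, HOMER, Picard, Trim Galore and FastQC. Versions, settings, strand and handling of reads with several matches: not given in the sources used here.

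Per the file headers, the authors' deposited peak list holds a pileup signal per summit, a fold enrichment, which is a linear ratio to local input, and −log10 values of each p-value and q-value. The authors' deposited element summary gives counts and percent of peaks per element. Depth per library is unknown. All pileup values were whole multiples of 0.9, read as 1 RIP fragment. Background was (pileup + 1) / fold − 1. Folds are the authors' own and describe or rank peaks within the list.

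Genes were matched to GENCODE M21 (GRCm38, the build called mm10): 688 peaks by symbol, 5 by synonym, 2 by position and 1 not at all; 20 summits lay in no annotated 3' UTR and were left out of positions and motifs, and 17 lay over an exon of the opposite strand. Shares carry Wilson and motif ratios exact 95% intervals, which take peaks and sites as independent. Placing, motif counting and intervals were tested on simulated data. With 1 library per group no p-value of a comparison was computed. The named genes were the 15 of highest fold, 10 of most fragments, 10 of smallest q-value and 5 of lowest fold, genes with 3 or more peaks, and up to 5 per list by fold. Results of 2 of the lists are not reported here. The members and lists were chosen with earlier results of these data known. Alternatives were a fold of 4, a q-value of 1e-05, peaks wholly inside 3' UTR exons, peaks of several genes left out, other transcripts, centres and windows. Python 3.11.15, numpy 2.4.6, pandas 2.3.3, scipy 1.17.1 and pysam 0.24.0 were used.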

Additional observations from a re-analysis of the deposited data

How the results depend on the processing

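No paired analysis was possible because each group had 1 library, so fewer than 2 pairs exist, and the labels number no replicates. No replicate could be left out either. Of 155 alternative values of the main results, 130 kept within the interval (or within 1.5 times the count) of the reported one, and 25 moved beyond it. No ratio whose interval left 1 changed to the other side of 1, but those of CACACA and CTTTCT, whose intervals held 1, passed from above to below it. At a fold of 4 or more, 202 peaks remained by construction, with a median fold of 5.18, 35 fragments and a background of 5.00, 4.71% of genes had 2 or more peaks, and 10 of the 27 lists stood above all genes. In that set the ratios were 2.86 for TGTGTG, 1.33 for CACACA and 1.81 for CTTTCT. At a q-value of 1e-05 or less the median fold was 3.40 and the median number of fragments 69. With the shortest 3' UTR holding the summit, the first of 5 segments held 12.9% of summits and the median distance to the 3' end was 820.5 bp. With the median over the annotated 3' UTRs, lengths were 1549 bp for the member genes and 720 bp for all genes. Against windows beside the peak the ratios were 1.23 for GGACH, 0.536 for AATAAA, 0.586 for ATTTA and 1.44 for CTTTCT; within 100 bases of the summit they were 0.489 for AATAAA and 0.877 for CACACA. On bases that are not soft-masked, an alternative chosen after seeing the data, they were 1.46 for TGTGTG, 0.715 for CACACA, 1.62 for AGAAAG and 0.848 for CTTTCT. The cause of these moves was not tested. Over the 8 alternatives AATAAA ran from 0.489 to 0.706, ATTTA from 0.586 to 0.707 and DRACH from 0.937 to 0.958; the interval lay below 1 in all 8 for AATAAA and ATTTA and in 7 for DRACH. A rule based on the summit alone gave 867 peaks, of which 678 were members. Single lists stayed within their interval in 38 of 54 cases. Fragments of a library without replicates, with unknown depth and duplicates, limit each fold to counting error.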

Other observations

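Of the 867 peaks whose summit lies in an annotated 3' UTR of a protein-coding gene, 678 were members, 167 were other peaks of the authors' table and 22 were outside that table, with a median fold of 3.20. Of the members, 17 (2.45%, 1.53 to 3.88) had a summit over an exon of a gene on the opposite strand. Strand of the libraries is not given in the sources used here, so reads of such pairs cannot be told apart.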
